A study of Arabidopsis thaliana with 6 samples.

Results

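The evening clock and light output genes described here are GIGANTEA (GI), COR27, COR28, HYH and AGL24, followed in rosette leaves of Arabidopsis thaliana. They were chosen by locus: a probe set of the array counted if it names only 1 gene and that gene is AT1G22770 (GI), AT5G42900 (COR27), AT4G33980 (COR28), AT3G17609 (HYH) or AT4G24540 (AGL24). Each of the 5 genes had exactly 1 such probe set, so 5 of 22746 tested probe sets, or 5 of 13286 named genes, are described.

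Transcripts were measured on 6 Affymetrix arrays, 3 from double mutant plants and 3 from wild-type Columbia-0. The double mutant carries lesions in AT3G03940 and AT5G18190, the loci of the protein kinases MLK2 and MLK1; the labels call the plants a knockdown in one place and -/- in another, and write the second locus with a digit missing. All plants were 21 days old, had 12 h of light a day and were well watered. The labels give neither the time of day of harvest nor whether a replicate is a plant or a pool, so the p-values speak only of the spread among these 6 samples, part of which may be technical, and for a gene with a daily rhythm a change in level and a change in timing cannot be told apart.

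GI, COR27 and COR28 belong to the part of the circadian clock that is active late in the day. GI is a large protein that peaks toward evening, works with the blue-light receptor FKF1 and carries day length to the flowering genes CONSTANS and FT. COR27 and COR28 are small related proteins, made in the evening and after cold, that repress other evening clock genes and take part in light signalling with the ubiquitin ligase COP1 and the transcription factor HY5. HYH is the closest relative of HY5, a bZIP factor that promotes light-dependent development. AGL24 is a MADS-box factor that acts with SOC1 to start flowering.

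On these arrays GI, COR27, COR28 and AGL24 were lower in the double mutant and HYH was higher. COR28 fell at least 7.79-fold, COR27 fell 7.04-fold and GI fell 2.95-fold, while AGL24 fell 1.56-fold and HYH rose 1.68-fold as measured. All 5 changes passed an adjusted p of 0.05 in limma, a linear model fitted to every probe set, against 38.5% of all tested probe sets (18.7% lower and 19.8% higher). Which direction held more calls depended on the scaling: with array medians subtracted 3949 probe sets passed as higher and 4942 as lower, against 4502 and 4255 here. With 3 arrays a group, the 3 values of one genotype lay wholly on one side of those of the other for all 5 genes, against 49.7% of all tested probe sets. Passing the threshold was therefore common on these arrays. A fall of at least 1 on the log2 scale was less so: 3 of the 5 genes had one, against 2.75% of tested probe sets. The median difference was -1.56 over the 5 genes and -0.01 over all tested probe sets, on the log2 scale. The 5 genes were chosen with earlier results of these data known, so these comparisons with all probe sets are descriptions only.

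**Figure D1:**
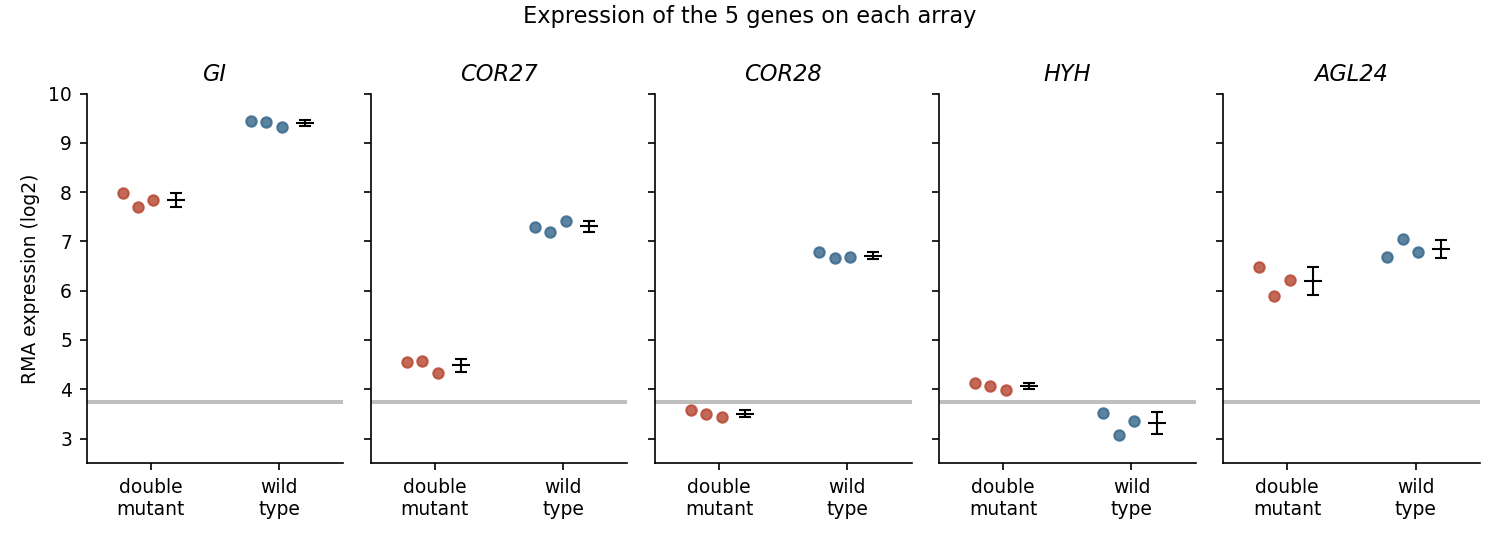
RMA expression (log2) of the 5 genes on each array, with double mutant arrays left of wild-type arrays; points are arrays, and the bar beside them gives the mean ± SD (n = 3). The grey band marks the lower quartiles of the arrays, 3.71 to 3.79: COR28 in the double mutant and HYH in the wild type lie below it.

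Several measures of the whole arrays moved with genotype. MLK1, the targeted kinase gene with a probe set of its own, read 3.42, 3.57 and 3.36 in double mutant arrays and 7.92, 7.74 and 7.63 in wild-type arrays, at least 16.2-fold lower; MLK2 was not analysed here. The control for 25S ribosomal RNA averaged 12.20 ± 0.12 in double mutant and 5.93 ± 0.76 in wild-type arrays (SD, n = 3). The 5′ control of actin against its 3′ control was higher by 0.67 in the double mutant, that of GAPDH was higher by 0.38 and that of ubiquitin differed by -0.19. The part of RNA preparation in the changes below was not tested. Of the fixed markers of tissue and cell type, the leaf marker RCA (Rubisco activase) read 13.54 ± 0.03 in the double mutant and 12.94 ± 0.05 in the wild type, and the root marker PYK10 read 11.82 ± 0.03 and 11.31 ± 0.14 (SD, n = 3 each); both rose (limma adjusted p = 0.00021 and 0.0015). The meristem marker CLV3 lay below the lower quartile on all 6 arrays, the guard cell marker FAMA differed by -0.17 (limma adjusted p = 0.27), and no flower marker was named alone by a probe set in the annotation used here. The listed markers had 1 measured gene of 4 for mesophyll, 1 of 4 for root, 1 of 3 for meristem, 1 of 3 for guard cells and 0 of 6 for flower. In whole rosettes, fewer cells of a type and less RNA per cell cannot be told apart.

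GI, the evening clock gene, read 7.98, 7.70 and 7.84 on the log2 scale in the double mutant arrays and 9.45, 9.43 and 9.33 in the wild-type arrays. Every double mutant array lay below every wild-type array, and the gap between the nearest arrays, 1.35, was larger than the spread inside either genotype. The mean was 7.84 ± 0.14 in the double mutant and 9.40 ± 0.07 in the wild type (SD, n = 3), a difference of -1.56 (SE 0.10, 95% interval -1.78 to -1.34; limma adjusted p = 5.9e-07). That is a fall of 2.95-fold, with a 95% interval of 2.53 to 3.43. A more negative difference was found for 213 probe sets, 0.936% of those tested. Both genotypes were well above the lower quartile of the arrays, so GI transcript was still measured in the double mutant.

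COR27, one of the paired cold and evening repressors, read 4.56, 4.56 and 4.33 in the double mutant and 7.29, 7.20 and 7.42 in the wild type. The double mutant arrays stayed a little above the lower quartile of the arrays, and a gap of 2.63 separated the genotypes. Its mean was 4.49 ± 0.13 in the double mutant and 7.30 ± 0.11 in the wild type (SD, n = 3), a difference of -2.82 (SE 0.10, 95% interval -3.04 to -2.59; limma adjusted p = 1.8e-08). Only 29 probe sets (0.127%) had a more negative difference. The fall was 7.04-fold, with a 95% interval of 6.02 to 8.24; RMA compresses folds of values this close to the background.

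COR28, the relative of COR27, read 3.58, 3.50 and 3.44 in the double mutant and 6.79, 6.67 and 6.67 in the wild type. Its residual SD was the smallest of the 5 genes, with an SD of 0.07 in each genotype. All 3 double mutant arrays lay below their own lower quartile, the level taken here as near the background, since no detection calls were used. The measured difference was -3.21 (SE 0.09, 95% interval -3.40 to -3.01; limma adjusted p = 4.5e-09). With the lower quartile of each array set as a floor, the fall is bounded at 2.96 on the log2 scale, or at least 7.79-fold. Bounds of this kind are differences of means and carry no interval.

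COR27 and COR28 both fell, and both by large amounts. Because COR28 was near the background in the double mutant, its fall is known only as a lower bound, and the sizes of the 2 falls cannot be ranked. As measured, their 6-array profiles, each set to its own wild-type mean, differed by a root mean square of 0.29 on the log2 scale, the least of the 10 pairs among the 5 genes; the other 9 pairs differed by 0.66 to 2.80. An exact two-sided permutation test of each of the 5 genes over the 6 arrays gave p = 0.1, the smallest that 3 arrays against 3 allow, so that test cannot pass 0.05 in this design. A search of the RefSeq gene annotation for cold-regulated genes, made after the values were seen, gave a further group. COR28 was added to it by locus, since its annotation holds no such words. Of the 5 measured genes of this group, COR27 and COR28 included, 4 fell and COR47 did not pass (limma adjusted p = 0.73). Over all tested probe sets 18.7% were lower. COR27 and COR28 are among the 4 and were chosen with earlier results of these data known, so the count is only a description. COR15B, a cold-induced chloroplast protein gene, fell by 3.66 (SE 0.11, limma adjusted p = 4.5e-09) and its relative COR15A fell by 1.05 (SE 0.10, limma adjusted p = 8.6e-06).

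HYH, the light-signalling bZIP gene, was the only one of the 5 that rose. It read 4.12, 4.07 and 3.99 in the double mutant and 3.52, 3.08 and 3.35 in the wild type. All 3 wild-type arrays lay below their lower quartile, and the double mutant arrays lay only just above it. The mean was 4.06 ± 0.07 in the double mutant and 3.32 ± 0.22 in the wild type (SD, n = 3), a difference of 0.74 (SE 0.12, 95% interval 0.49 to 1.001; limma adjusted p = 0.00042). Against the floor of the lower quartile the rise is at least 1.23-fold as a difference of means, less than the 1.68-fold measured. The adjusted p belongs to the measured difference, not to this bound. A larger rise was found for 1622 probe sets (7.13%), so the measured size of this rise was common on these arrays. Among the 5016 probe sets that were near the background on all wild-type arrays, 6.52% passed as higher in the double mutant.

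AGL24, the flowering MADS-box gene, had the most scatter. It read 6.47, 5.90 and 6.21 in the double mutant and 6.69, 7.04 and 6.79 in the wild type. The genotypes did not overlap, but the nearest arrays were only 0.22 apart, less than the SD of the double mutant. The mean was 6.20 ± 0.29 in the double mutant and 6.84 ± 0.18 in the wild type (SD, n = 3), a difference of -0.64 (SE 0.15, 95% interval -0.96 to -0.32; limma adjusted p = 0.0048). Its residual SD of 0.24 was above that of 93.4% of probe sets, whose median was 0.12. A more negative difference was found for 1513 probe sets (6.65%), so the size of this fall was common on these arrays.

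**Figure D2:**
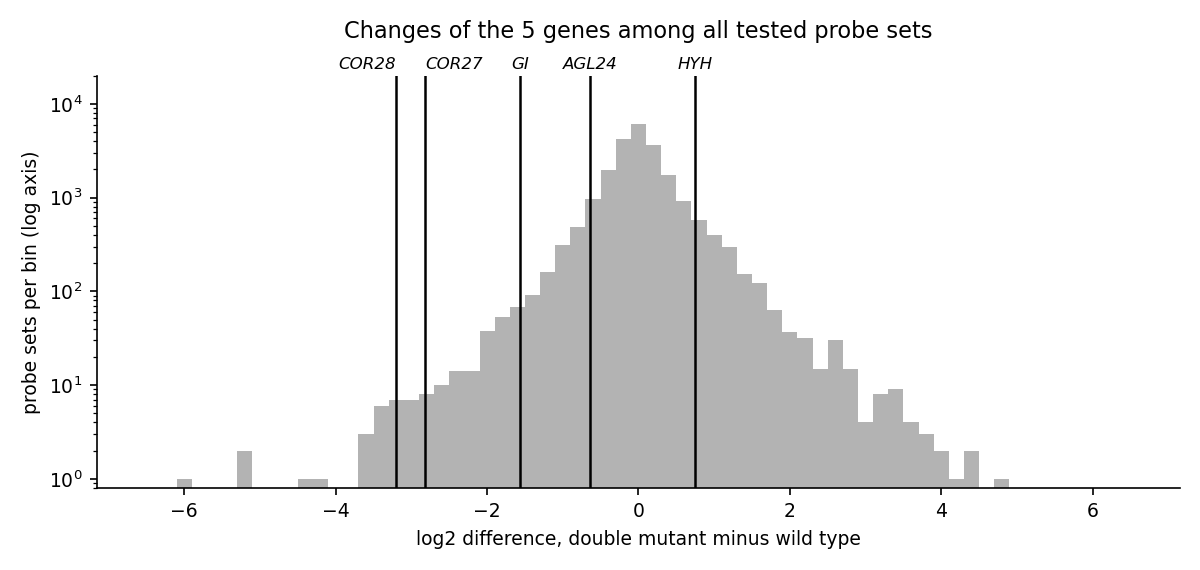
Number of probe sets (log axis) by log2 difference, double mutant minus wild type, for all 22746 tested probe sets, with a vertical line at each of the 5 genes. COR28 and COR27, at -3.21 and -2.82, lie in the far lower tail, GI at -1.56 lies nearer the centre but still in that tail, and AGL24 at -0.64 and HYH at 0.74 lie in the body of the distribution.

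The wider clock, light and flowering pathways could be followed only in part. Of 89 listed genes besides the 5 and the MLK kinases, 3 had a probe set that names them alone: 2 rose and 1 did not pass. The annotation used here leaves 8730 tested probe sets unnamed and 503 with several genes, so a gene without a named probe set may still be on the array. No other gene of the 12 on the evening clock list could be analysed here, nor any of the 10 listed as light outputs of HY5 and HYH. The names RVE6 and CDF5 come from the list used here; the RefSeq table gives these loci no symbol.

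AT5G52660 (RVE6), a MYB-like factor of the REVEILLE family that promotes evening-phased genes, was the only measured gene of 15 on the morning and day clock list. It read 6.67 ± 0.14 in the double mutant and 6.25 ± 0.10 in the wild type (SD, n = 3), a rise of 0.41 (SE 0.10, limma adjusted p = 0.0078). AT1G69570 (CDF5), a DOF repressor of flowering of the group that GI and FKF1 help to degrade as proteins, read 6.99 ± 0.07 in the double mutant and 6.55 ± 0.21 in the wild type (SD, n = 3). It rose by 0.44 (SE 0.11, limma adjusted p = 0.01), and with COR27 and COR28 it makes up the 3 measured of 15 clock output genes. SMZ, an AP2-type repressor of flowering, differed by -0.27 (SE 0.12, limma adjusted p = 0.11); its genotypes overlapped. It and AGL24 were the 2 measured of 15 flowering genes, and HYH was the only measured gene of the 28 on the photoreceptor and light signalling list.

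A search of the RefSeq gene annotation for words on light, hypocotyl growth, the circadian clock and flowering, made after the values were seen, added 7 genes: 2 rose, 2 fell and 3 missed the threshold, where 34.9% of all named genes passed in either direction. FHL, a relative of FHY1 that helps phytochrome A enter the nucleus, read 4.82, 4.46 and 4.13 in the double mutant and 6.24, 6.46 and 6.38 in the wild type. It fell by 1.89 (SE 0.15, limma adjusted p = 3.4e-06), a larger change than that of GI as measured. AT1G72390, annotated as PHYTOCHROME-DEPENDENT LATE-FLOWERING, fell by 0.76 (SE 0.10, limma adjusted p = 9.1e-05) on the brighter of its probe sets. AT5G47390, the MYB-type gene KUA1, rose by 1.08 (SE 0.11, limma adjusted p = 1.8e-05). By locus it lies in the chromosome 5 interval described below, where 451 of 752 other measured genes rose. AT4G14480 (BLUS1), a kinase of blue-light signalling in guard cells, rose by 0.38 (limma adjusted p = 0.011), with an adjusted p of 0.0556 without double mutant replicate 1. XCT, a nuclear protein that affects clock period, differed by -0.20 and did not pass, and SHB1 and DNF did not pass either.

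**Figure D3:**
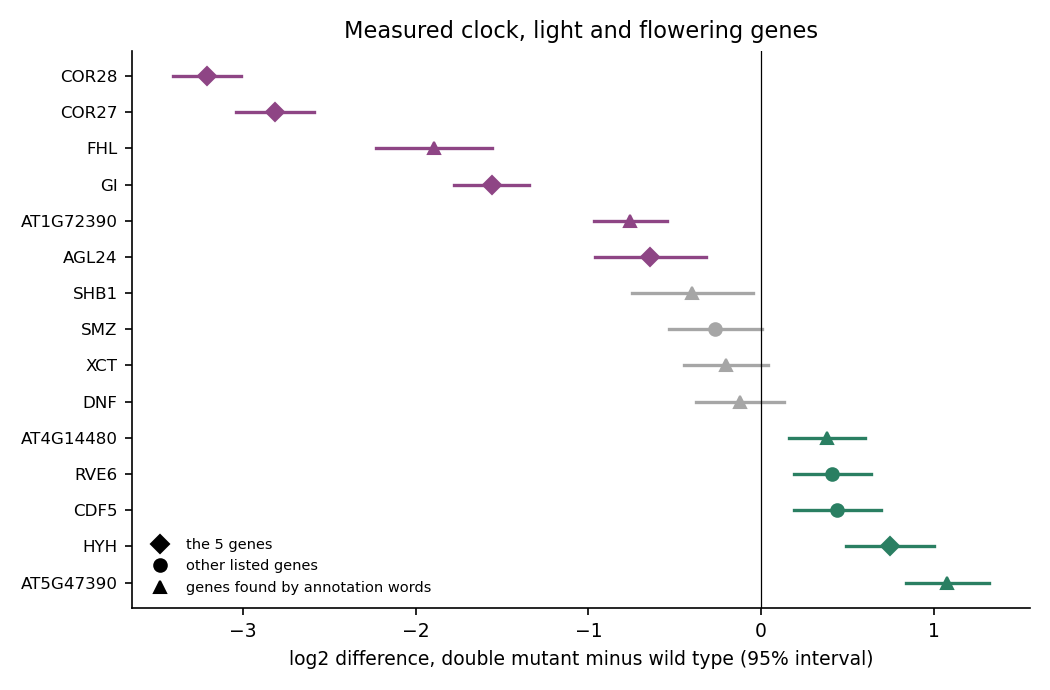
Log2 difference, double mutant minus wild type, with its unadjusted 95% interval from limma, for the 5 genes (diamonds), the other 3 measured genes of the lists (circles) and the 7 genes found by annotation words (triangles); green marks genes that passed as higher, purple as lower and grey those that did not pass. FHL at -1.89 lies between COR27 and GI.

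Relatives of HYH and AGL24 were set beside them by family name, again a choice made after the values were seen. The bZIP group holds 14 measured genes that the annotation names as bZIP, with HYH added through its name as a HY5 homolog. Of these 14, HYH included, 2 rose and 1 fell. The other 11 missed the threshold, and the median difference was -0.09. These 3 calls among 14 stand against 34.9% over all named genes. The other that rose was bZIP58, by 0.56 as measured (SE 0.10, limma adjusted p = 0.0014); like HYH it was near the background in the wild type, and against the floor of the lower quartile the rise is at least 0.26 on the log2 scale. bZIP44 fell by 0.43 (SE 0.09, limma adjusted p = 0.002). Of 40 measured AGAMOUS-like genes, AGL24 included, 4 rose, 3 fell and 33 did not pass, and 26 of the 40 lay below the lower quartile on all 6 arrays. The 7 calls among 40 stand against 34.9% called over all named genes. AGL24 had the most negative measured difference of the 40. AGL19, also known as a promoter of flowering, rose by 0.57 as measured (SE 0.11, limma adjusted p = 0.0015), but it was near the background in the wild type and against the floor of the lower quartile the rise is bounded at only 1.02-fold. AGL79, called lower, was below the lower quartile in each genotype, so no size is given. The other 4 calls of this family, AGL61, AGL65, AGL87 and AGL96, each missed the threshold under at least 3 alternative settings.

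Each of the 5 genes was also set beside its 5 nearest measured genes on either side on the chromosome. Over all 13286 named genes, 34.9% passed in either direction. Around GI, on chromosome 1, 4 neighbours rose, 1 fell and 5 did not pass, with differences of -0.26 to 0.72, so none came near the -1.56 of GI. Around HYH, on chromosome 3, 1 rose, 2 fell and 7 did not pass, with differences of -0.38 to 0.26.

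COR27 lies on chromosome 5 inside an interval, AT5G40450 to AT5G55000, in which earlier work on these arrays found most expressed genes higher in the double mutant. COR27 went the other way. Of its 10 neighbours 7 rose, none fell and 3 missed the threshold; their median difference was 0.38. Of the other 752 measured genes of the interval 451 rose, 28 fell and 273 missed the threshold; the median was 0.52. None of them had a more negative difference than COR27; the nearest was AT5G52070, at -2.81. RVE6 and KUA1, which both rose, lie in the same interval. The borders of the interval were drawn from these values, so its counts are a description.

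COR28, on chromosome 4, had neighbours that moved both ways, with 3 higher, 2 lower and 5 not past the threshold. AT4G33985, the next measured gene, fell by 0.79 (limma adjusted p = 0.00024), and UGT73B1, a glycosyltransferase gene 4 places away, rose by 1.02 (limma adjusted p = 0.00011). Around AGL24, also on chromosome 4, 6 of 10 neighbours fell, none rose and 4 did not pass. Their median difference was -0.37. Among them AT4G24450, given the symbol PWD in the RefSeq gene annotation, fell by 1.38 (limma adjusted p = 2.7e-06), more than AGL24 itself.

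**Figure D4:**
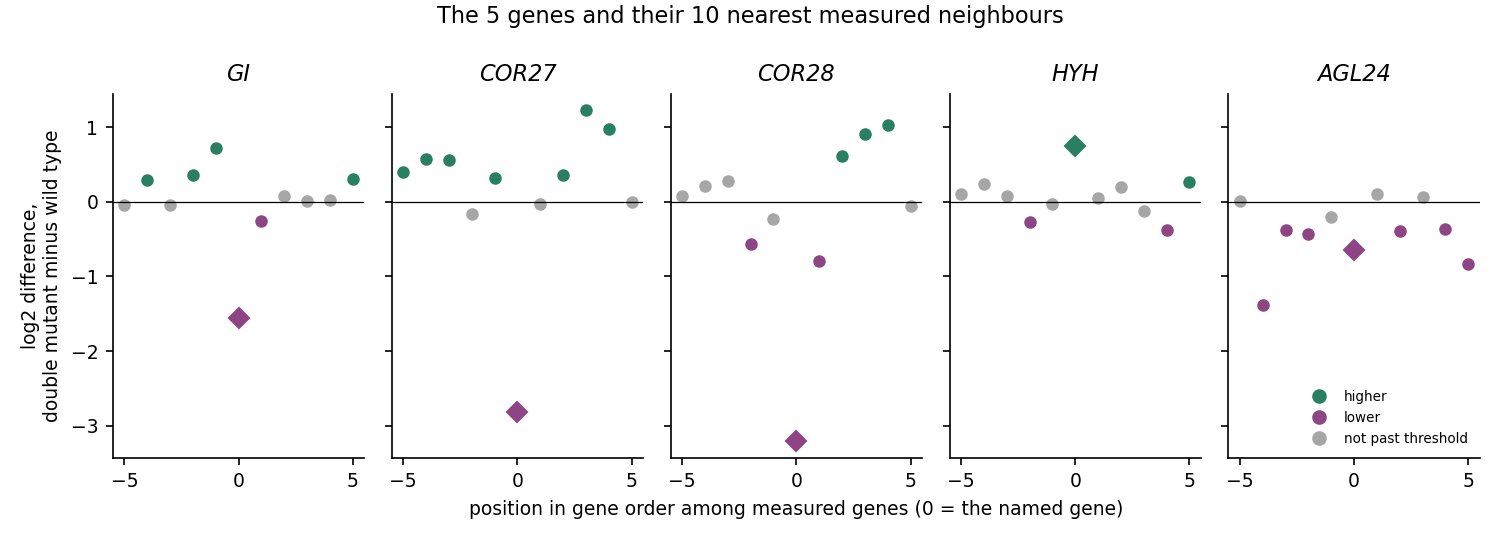
Log2 difference, double mutant minus wild type, of the 5 genes (diamonds at position 0) and their 10 nearest measured neighbours (circles), by place in gene order; green passed as higher, purple as lower and grey did not pass. GI, COR27, COR28 and HYH stand outside the range of their neighbours, while AGL24 at -0.64 lies within its neighbours' range of -1.38 to 0.11.

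For each gene the 3 named probe sets with the nearest 6-array profile were picked by root mean square difference, after each profile was set to its own wild-type mean. With 2 genotypes such likeness rests mostly on the size of the genotype difference. Nearest to GI were AT4G14270 (0.06), AT5G02550 (0.10) and AT2G40960 (0.11), with differences of -1.55, -1.62 and -1.56. Nearest to COR27 were AT5G20790 (0.12), AT2G39920 (0.13) and AT4G22490 (0.15), none of them on the lists. Nearest to COR28, as measured, were AT4G16146 (0.14), AT5G33370 (0.19), a GDSL-type lipase gene, and the starch-related orphan gene QQS (0.19). Nearest to HYH were SKU5 (0.05), a cell wall and membrane protein gene, AT3G29075 (0.06) and psaI (0.07), a plastid gene of photosystem I. Nearest to AGL24 were AT3G12040 (0.06), AT5G15320 (0.07) and AT2G28080 (0.08). COR27 and COR28, each the other's closest among the 5, were farther apart than these.

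The authors' deposited table gives a limma comparison with the same log2 differences for the 5 genes. In the authors' deposited table the adjusted p is 5.1e-09 for COR28, 2e-08 for COR27, 6.4e-07 for GI, 0.00043 for HYH and 0.0049 for AGL24. Ranked by log odds in the authors' deposited table, control probe sets included, COR28 stands at place 8, COR27 at 40, GI at 383, HYH at 3100 and AGL24 at 5219.

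**Figure D5:**
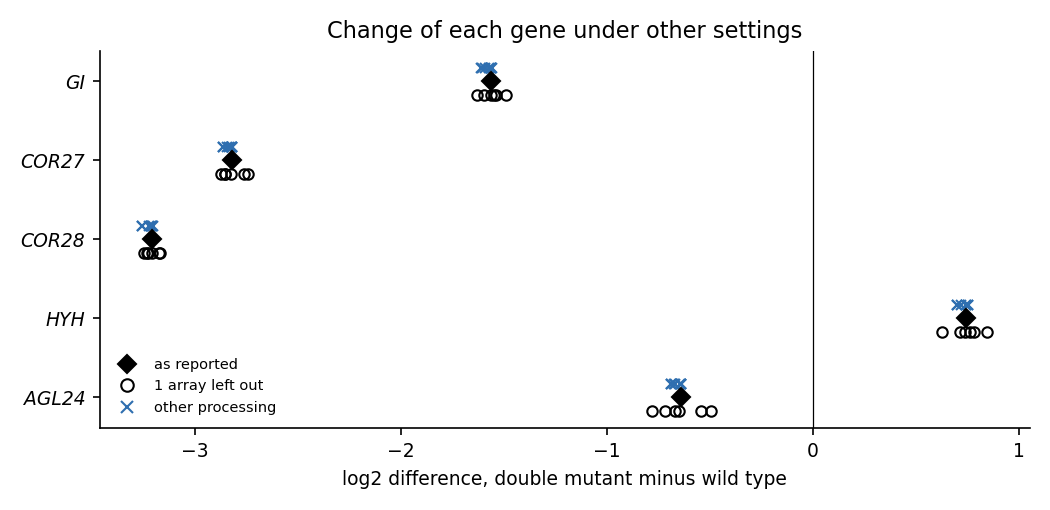
Log2 difference, double mutant minus wild type, of each of the 5 genes as reported (black diamond), with 1 array left out (open circles) and under other processing (blue crosses). AGL24 spans -0.78 to -0.49 and HYH 0.63 to 0.85, and no gene crosses 0.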

How the data were processed

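The authors' deposited values are log2 expression per probe set. They came from RMA (background correction, quantile normalization, probe summary) and limma in R 2.9.0, per the submitters' processing notes. The authors' deposited table gives log2 differences, p-values and scores (moderated t and log odds) and entered no test here. Its differences matched double mutant minus wild type means within 6.7e-09, which sets the direction. Array medians were 5.81 to 5.90 log2. Scan dates and intensities were not used; 6 arrays bound the precision.

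Without 64 control probe sets, 22746 were tested: 13513 name 1 gene (13436 matched RefSeq's TAIR10.1 table), 503 several and 8730 none here. Where a gene had several probe sets, the brightest stood for it. Coordinates and sequences are not printed, since no header or label names a build.

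The test was limma 3.58.1 (R 4.3.3; lmFit and eBayes, two-sided, no term but genotype, 10.6 total degrees of freedom) with Benjamini-Hochberg adjustment over all 22746, checked on simulated data. The genes, lists and tests were chosen with earlier results of these data known. Named are the 5 genes, up to 3 called genes per list by smallest adjusted p (otherwise the largest absolute t), and the 3 nearest profiles per gene; others are marked. Alternatives were a low-signal filter, 4 rescalings, 2 variance settings, a replicate block and each array left out. Summaries and plots used pandas 2.3.3, numpy 2.4.6, scipy 1.17.1 and matplotlib 3.10.9 under Python 3.11.15.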

Additional observations from a re-analysis of the deposited data

How the results depend on the processing

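All 5 genes kept their direction and passed the threshold under each alternative that tested them. The low-signal filter, which keeps 11373 probe sets, does not test COR28 or HYH, so 3 genes were called under it; on these 3 the adjusted p stayed under the threshold. Leaving out each array in turn gave -1.63 to -1.49 for GI, -2.87 to -2.74 for COR27, -3.24 to -3.17 for COR28, 0.63 to 0.85 for HYH and -0.78 to -0.49 for AGL24 on the log2 scale. The highest limma adjusted p over all alternatives was 0.022, for AGL24 without double mutant replicate 2. Rescaling by array medians moved the median of all probe sets to -0.06 and turned the balance of calls to more lower than higher (3949 higher, 4942 lower), as did medians of nuclear probe sets (3958 and 4937) and quantile normalization (4306 and 4588); cyclic loess did not (4560 and 4259). The number of probe sets called was 6985 to 8834 with 1 array left out and 9390 with array quality weights. The low-signal filter called 6240 of its 11373 probe sets, a share of 54.9% against 38.5% in the main fit. The deviations of same-numbered arrays correlated at -0.08, -0.10 and -0.16, and those of differently numbered arrays at -0.06 to 0.16. From 3 arrays a group, these values cannot decide whether the replicate numbers pair the arrays. With the replicate block the 5 genes still passed (largest limma adjusted p = 0.0086, AGL24) and 8095 probe sets were called. The number of arrays and values close to the background limit what can be said of COR28 in the double mutant and HYH in the wild type.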
